A study of Mus musculus with 10 samples.

Results

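The RNAs described here are 2 long noncoding RNAs that stay in the nucleus, Malat1 and Neat1, and 8 coding genes whose products act in pre-mRNA splicing. The coding genes are the DEAD-box helicases Ddx5 and Ddx17, the kinases Clk1 and Clk4, the arginine/serine-rich Rsrp1, the U1-associated Luc7l2, and Srsf5 and Srsf11 of the SR protein family. These 10 genes were named from a table of 16154 genes and chosen by function and by their wild type and knockout values in all 10 libraries, so that their differences between the genotypes are a description and carry no test. All 10 passed the filter on low values that left 12946 genes for testing.

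The libraries came from polyA RNA of alveolar type II (AT2) cells, which make pulmonary surfactant, sorted from lungs of C57BL/6 mice aged 8 to 10 weeks. There were 5 libraries labelled wild type (numbers 2 to 6) and 5 labelled HOIL-1L knockout (numbers 1 to 5). The genotype label of the knockouts reads HOIL-1L -/-, while the design text names a floxed HOIL-1L allele with a Cre called CreSPC, after the surfactant protein C promoter. A floxed allele is removed only in cells that express the Cre, and the sources do not settle which description holds. No treatment is named in the labels, and the letter N in every title is not explained. The mouse number differs in every title, and each library is treated as 1 mouse; the p-values measure the spread between these libraries.

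Rbck1, which encodes HOIL-1L, a subunit of the linear ubiquitin chain assembly complex, served as the check of the labels. Its level was 29.7, 56.7, 57.8, 56.1 and 56.6 normalized counts per M (M for mega, with 1 constant dividing all values) in wild type 2 to 6. In knockout 1 to 5 it was 59.3, 29.8, 36.4, 38.0 and 38.8. The library labelled wild type 2 and that labelled knockout 1 thus lay at the level of the opposite group, and the genotype differences are given for all 10 libraries as labelled and for the 8 others. The mouse numbers form 2 runs. Wild type 2 and 3 and knockout 1 to 3 make up the first run. Wild type 4 to 6 with knockout 4 and 5 make up the second. The labels do not say what the runs stand for. The totals of the deposited columns were 6.935 to 7.434 M, and the smallest values above 0 put the depth at about 7.84 to 15.32 M reads. The 12 AT2 markers summed to 213923 to 257118 per M in every library, against 5582 to 10359 for 6 club cell markers and 2228 to 2855 for 8 AT1 markers. Ciliated cell markers summed to 190 to 336, macrophage and monocyte markers to 66.7 to 130, and the 3 lymphocyte markers in the table to at most 0.83. Sex-linked genes marked 3 libraries as female, wild type 2 and knockout 2 and 3, all of the first run.

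In the nucleus, Malat1 gathers in speckles, bodies that store splicing factors, and Neat1 is the scaffold of paraspeckles, bodies that hold RNA-binding proteins. SR proteins bind exons through RNA recognition motifs and help the spliceosome to find splice sites. CLK kinases phosphorylate the arginine/serine-rich tails of SR proteins and so release them from speckles. The RNAs of CLK kinases and of several SR proteins are themselves known to keep introns or to include exons that lead to decay, and a share of such transcripts stays in the nucleus. Ddx5 and Ddx17 are paralogous RNA helicases that act as partners in splicing and transcription.

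How these RNAs end matters for a polyA library, so the relevant stretches of Malat1 and Neat1 are shown from the GENCODE M21 transcripts (mm10, minus strand of chr19), written along the RNA. The annotated Malat1 transcript has an AATAAA polyadenylation signal near its end. Before that signal it has 1 run of 12 A, its only run of at least 10 A. That run is in capitals in the first line, which spans chr19:5795948-5796059. Neat1 has a short isoform that ends behind an AATAAA signal, in capitals in the second line (chr19:5842307-5842406), and a long isoform whose last 100 bases, in the third line (chr19:5824708-5824807), hold no AATAAA.
Malat1, bases 6614 to 6725 of 6983: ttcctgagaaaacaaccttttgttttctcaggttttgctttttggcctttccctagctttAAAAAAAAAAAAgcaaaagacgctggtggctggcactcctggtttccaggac
Neat1 short isoform, last 100 of 3004 bases: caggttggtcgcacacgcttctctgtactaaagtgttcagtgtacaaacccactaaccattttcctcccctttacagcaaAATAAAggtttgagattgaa
Neat1 long isoform, last 100 of 20771 bases: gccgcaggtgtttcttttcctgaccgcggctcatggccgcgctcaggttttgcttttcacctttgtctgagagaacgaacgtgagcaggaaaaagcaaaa
The last AATAAA of the long isoform lies 2077 bases before its end. The longest run of A is 7 bases in the long Neat1 isoform and 5 in the short one. The deposited values give 1 number per gene, so the isoforms were counted together. They do not show where Malat1 or Neat1 ended in these cells, or whether the RNA counted carried a polyA tail at the annotated end.

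Both noncoding RNAs lie on chromosome 19 (mm10, minus strand), Malat1 from 5795690 to 5802672 and Neat1 from 5824708 to 5845478, 22035 bases apart. The coding members lie on 7 other chromosomes. Ddx5 is on chromosome 11 (106780355 to 106789185, minus strand), as is Clk4 (51261730 to 51281766, plus). Ddx17 is on chromosome 15 (79527736 to 79546741, minus), Clk1 on chromosome 1 (58410189 to 58424066, minus) and Rsrp1 on chromosome 4 (134923592 to 134927671, plus). Luc7l2 is on chromosome 6 (38551334 to 38609470, plus), Srsf5 on chromosome 12 (80945504 to 80950507, plus) and Srsf11 on chromosome 3 (158010473 to 158036639, minus). All values are sums over a whole gene, exonic reads of every isoform together.

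What the coding members share in the annotation, which is no measured value, is transcripts that are not translated into the full protein. GENCODE M21 lists at least 1 retained-intron transcript for 7 of the 8, against 59.6% of 11778 coding genes tested. It lists a transcript marked for nonsense-mediated decay, which removes RNAs with an early stop codon, for 6 of the 8, against 29.1%. Srsf11 has 11 retained-intron transcripts and Clk1 and Clk4 have 7 each, a number reached or passed by 2.53% of coding genes. Ddx17 has none of either kind. The coding members have 4 (Ddx17) to 19 (Srsf11) annotated transcripts, against a median of 5 over the coding genes tested. The shares above were not matched for that number. These are annotations, and the gene-level values do not show which isoform was present. Exons of Luc7l2 overlap those of Gm26699 on the other strand over 2284 bases, and those of Malat1 overlap Gm37376 and Gm27694. The sources used here do not give the strand setting of the counting, so reads from such partners cannot be told apart.

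Divided by the joint length of all annotated exons of a gene, the level of the members spanned more than a factor of 10. Ddx5 had the highest mean level per kb of exon (55.0 per M), followed by Rsrp1 (44.1) and Malat1 (43.1). Ddx17 stood at 25.5, Srsf5 at 20.5 and Neat1 at 9.4. For Neat1 the length is that of the long isoform (20771 bases), by which reads of the short isoform (3004 bases) are divided too. Its value per kb would be higher if the reads came from the short isoform, which was not measured. Retained introns that are annotated as exons also add to the length, so the order holds for these lengths only. Luc7l2 (6.08), Srsf11 (5.83), Clk1 (5.12) and Clk4 (3.85) lay near the median of all genes tested, which was 4.62 per kb. The variation across libraries was wide: 9 of the 10 had a coefficient of variation above 10.7%, the median of 8486 genes at 10 per M or more. It ran from 10.4% for Srsf11 to 54.1% for Neat1.

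Malat1 varied 2.59-fold between libraries. Its level was 153, 239, 372, 396 and 354 per M in wild type 2 to 6 and 266, 249, 316, 348 and 315 in knockout 1 to 5. The first-run libraries held 153 to 316 and the second-run libraries 315 to 396, an overlap of knockout 3 with knockout 5 alone. The mean over 5 libraries was 303 ± 103 (SD) for wild type and 299 ± 40.4 (SD) for knockout.

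Neat1 was marked by 1 library. It stood at 119, 157, 202.7, 174 and 137 per M in wild type 2 to 6 and at 148, 139, 206, 484 and 185 in knockout 1 to 5. Knockout 4 lay far above every other library, and the other 9 formed a single range from 119 to 206. The wild type mean was 158 ± 32.6 and the knockout mean 233 ± 143 (SD, n = 5 each). In bulk RNA, a change in the share of cells and a change in RNA per cell cannot be told apart, here and below.

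**Figure D1:**
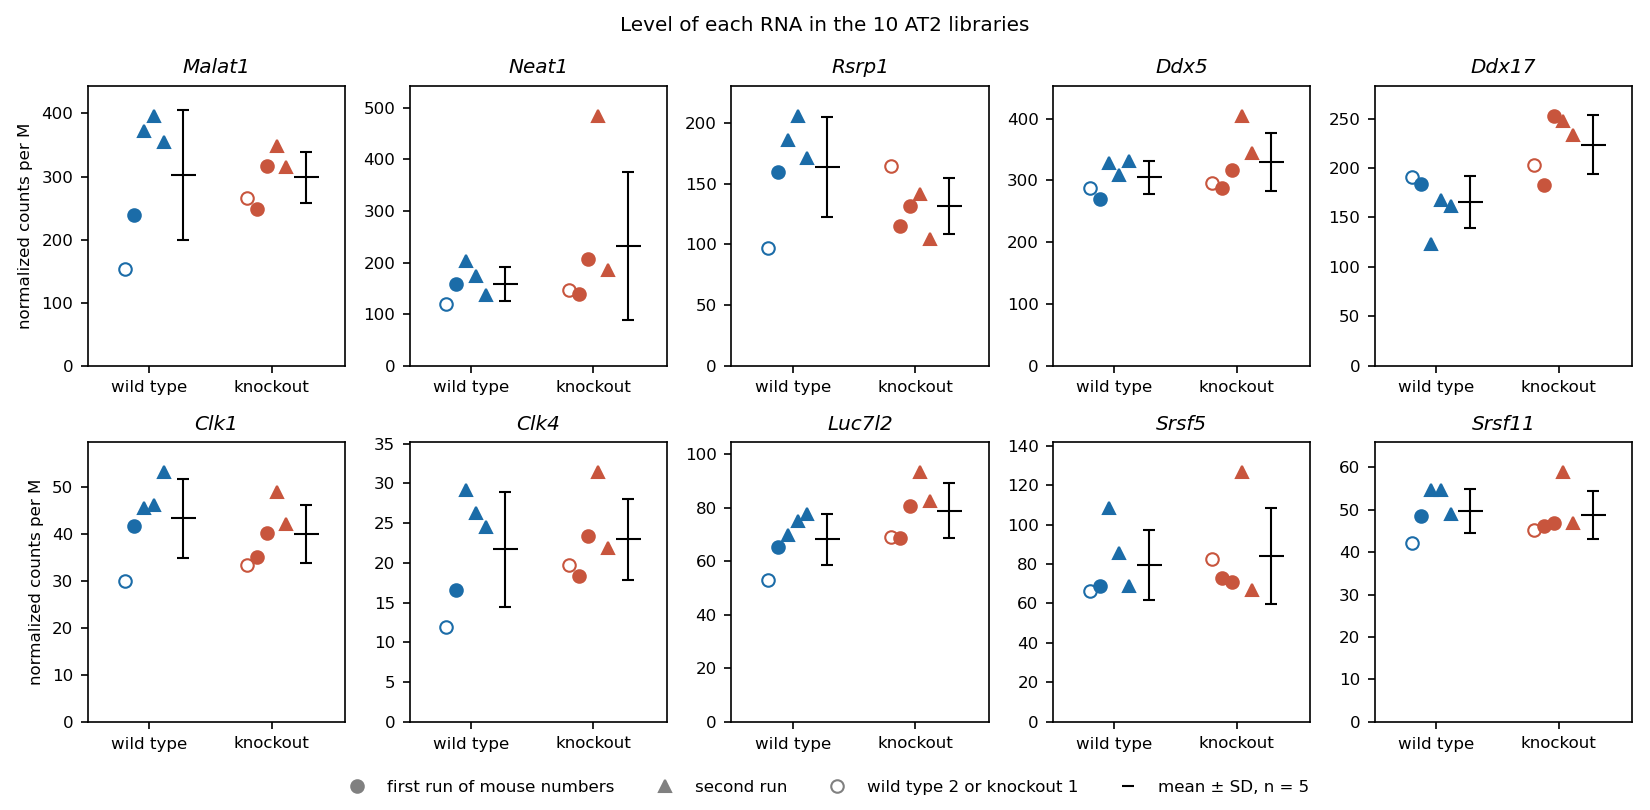
Level of each of the 10 RNAs (vertical axis, normalized counts per M, from 0) in the wild type and knockout libraries (horizontal axis). Circles are the first run and triangles the second run of mouse numbers, open circles are the libraries labelled wild type 2 and knockout 1, and bars give the mean and SD of 5 libraries; the genotypes overlap for every RNA, and the knockout 4 triangle lies far above the rest for Neat1 (484 per M).

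Among the helicases, Ddx5 varied 1.5-fold between libraries. It stood at 288, 269, 329, 308 and 331 per M in wild type 2 to 6 and at 296, 287, 316, 404 and 345 in knockout 1 to 5, with means of 305 ± 26.5 and 330 ± 47.3 (SD, n = 5 each). Its paralog Ddx17 followed the genotype labels more than the other members did. Ddx17 stood at 191, 183.97, 123, 168 and 161 per M in wild type 2 to 6 and at 202.9, 182, 253, 248 and 233 in knockout 1 to 5. Only knockout 2 (182) fell within the range of the wild type libraries, below both first-run wild type libraries. Wild type had a mean of 165 ± 26.4 and knockout 224 ± 30.2 (SD, n = 5 each), a difference of mean log2 levels of 0.44 ± 0.11 (SE). It was 0.53 ± 0.12 (SE) in the 8 libraries. The sources used here do not say how reads that match both helicases were counted.

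For the kinases, the libraries differed more by run than by genotype label, and the tests are given with the run comparison. Clk1, which phosphorylates SR proteins, stood at 30.1, 41.7, 45.5, 46.1 and 53.2 per M in wild type 2 to 6 and at 33.4, 35.2, 40.2, 48.9 and 42.1 in knockout 1 to 5. It was the 1 member whose runs did not overlap, with 30.1 to 41.7 in the first and 42.1 to 53.2 in the second. Of all 12946 genes, 369 (2.85%) had runs that did not overlap. Clk4, a close relative, stood at 11.9, 16.6, 29.2, 26.3 and 24.5 per M in wild type 2 to 6 and at 19.7, 18.3, 23.4, 31.4 and 21.8 in knockout 1 to 5. Its 3 second-run wild type libraries lay above both first-run ones, whereas among the knockouts the first-run library 3 lay above the second-run library 5.

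Rsrp1, an arginine/serine-rich protein that is less studied than the SR proteins, had the reverse relation to genotype from Ddx17. It stood at 96.7, 160, 186, 206 and 171 per M in wild type 2 to 6 and at 164, 115, 132, 141 and 105 in knockout 1 to 5. The lowest value was in wild type 2 and the highest knockout value in knockout 1, the pair whose Rbck1 level went against the label. The means were 164 ± 41.3 and 131 ± 23.4 (SD, n = 5 each). In the other 8 libraries the wild type mean was 181 ± 19.9 and the knockout mean 123 ± 16.5 (SD, n = 4 each), and the groups no longer overlapped. With 4 and 4 libraries 869 genes (6.71%) did not overlap, and Rsrp1 was the 1 member among them. With 5 and 5 there were 206 such genes (1.59%) and no member.

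Luc7l2, a homolog of a yeast protein of the U1 snRNP, which recognises the start of an intron, stood at 53.1, 65.3, 69.9, 75.1 and 77.5 per M in wild type 2 to 6. In knockout 1 to 5 it stood at 69.1, 68.9, 80.6, 93.3 and 82.4, with a wild type mean of 68.2 ± 9.65 and a knockout mean of 78.9 ± 10.2 (SD, n = 5 each). Its highest values were those of knockout 4 and 5, followed by knockout 3. Srsf5 stood at 66.1, 68.8, 108, 85.4 and 69.0 per M in wild type 2 to 6 and at 82.7, 73.1, 70.6, 127 and 66.9 in knockout 1 to 5. Knockout 4 and wild type 4 were high and the other 8 libraries lay between 66.1 and 85.4. Srsf11, which also has an arginine/serine-rich domain, was the steadiest member, at 42.1, 48.4, 54.6, 54.6 and 49.0 per M in wild type 2 to 6 and at 45.1, 46.2, 46.9, 58.8 and 46.8 in knockout 1 to 5.

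**Figure D2:**
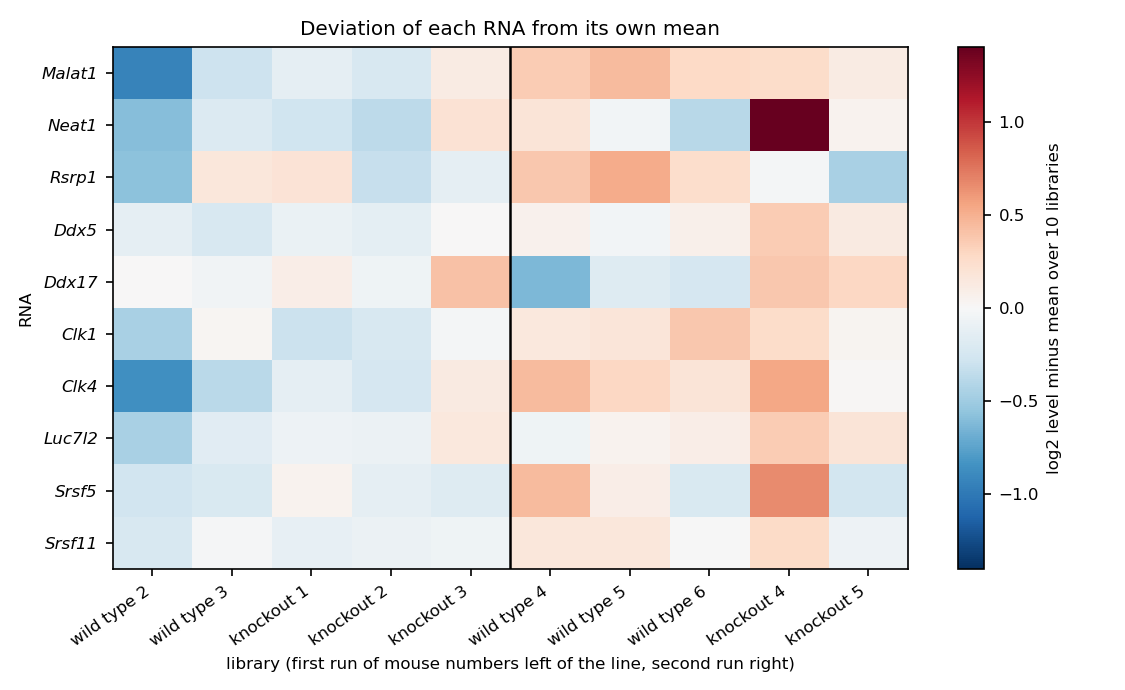
Log2 level of each RNA (rows) minus its own mean over the 10 libraries (columns, first run left of the line, second run right), with red for higher and blue for lower. Wild type 2 was the lowest library for 8 RNAs and knockout 4 the highest for 6, and Ddx17 has its own pattern.

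The same libraries were low or high for most members. The library labelled wild type 2 was the lowest of all 10 for 8 members, Ddx5 and Ddx17 being the others, and this library was the lowest for 14.4% of all genes tested. Knockout 4 was the highest for 6 members (Neat1, Ddx5, Clk4, Luc7l2, Srsf5 and Srsf11) and for 10.1% of all genes. These counts describe RNAs that vary together, so they are not independent of each other.

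The genotype differences of most members lay within the spread between libraries, those of Ddx17 and, in the 8 libraries, Rsrp1 being larger beside it. With all 10 libraries, 7 members had a log2 difference (knockout minus wild type) above 0 and 3 below, with a median of 0.08 against 0.01 for all genes. With limma, 0 of 12946 genes (0.0%) passed an adjusted p of 0.05, while 1227 genes, Ddx17 being the 1 member among them, were at an unadjusted p under 0.05. In the 8 libraries 4 members were above 0 and 6 below, with a median of -0.01. There 52 genes (0.402%) passed and 1 of them was a member, Rsrp1, lower by 0.55 ± 0.10 (SE) on the log2 scale. In the second run alone, 3 wild type against 2 knockout libraries, 41 genes (0.317%) passed, among them Rsrp1, lower, and Ddx17, higher. Since the members were chosen with this contrast in view, nothing is read from these counts. The log2 differences of the remaining members in the 8 libraries were 0.44 ± 0.25 for Neat1, 0.17 ± 0.09 for Luc7l2, 0.12 ± 0.10 for Ddx5, -0.13 ± 0.13 for Malat1 and -0.17 ± 0.10 for Clk1 (SE). Clk4, Srsf5 and Srsf11 lay between -0.06 and 0.00. Without knockout 4 the difference of Neat1 was 0.07 in the 8 libraries, and 0.11 in place of 0.41 in the 10. Of the 13 mitochondrial messenger RNAs, 13 had a difference below 0 in both sets (median -0.14 in the 10 and -0.30 in the 8 libraries). Ciliated cell markers were below 0 in 5 of 6 cases over the 10 and in 6 of 6 over the 8 libraries (median -0.31). All 5 fibroblast and smooth muscle markers tested were below 0 in both (median -0.62 and -0.75). The sum over all 8 listed, tested or not, was 7.06 to 13.8 per M in wild type and 2.75 to 8.97 in knockout. The part of these lists in the differences of the members was not tested.

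**Figure D3:**
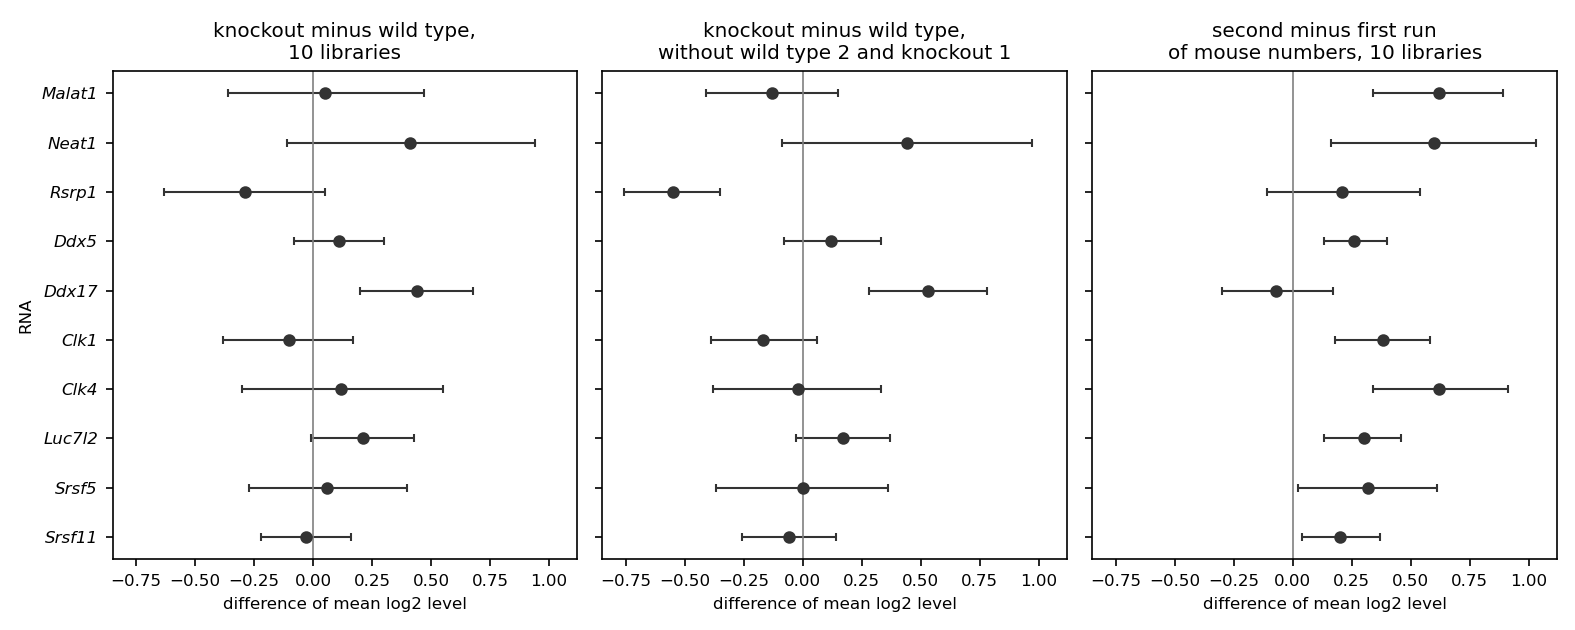
Difference of mean log2 level for each RNA (points) with its 95% limma interval (bars), for knockout minus wild type in all 10 libraries (left) and in 8 (middle), and for the second minus the first run of mouse numbers (right). In the left panel Ddx17 (0.44) and Neat1 (0.41, with a wide interval) lie farthest above 0 and Rsrp1 (-0.29) farthest below, and in the right panel 9 of 10 differences lie above 0.

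The runs were compared with the genotype label as a covariate. Malat1 was higher in the second run by 0.62 ± 0.13 on the log2 scale (SE), or 1.53-fold (limma adjusted p = 0.0401), with 244 ± 59.3 per M in the first and 357 ± 30.2 in the second (SD, n = 5 each). Clk4 was higher by 0.62 ± 0.14 (SE), or 1.54-fold (limma adjusted p = 0.0455), with 18.0 ± 4.23 and 26.6 ± 3.79 per M (SD, n = 5 each). These were the members among 81 genes (0.626%) that passed, 41 higher and 40 lower. Neither call held without wild type 2 (log2 differences 0.41 and 0.47, limma adjusted p = 0.112 and 0.19). Nor did they hold without any one of wild type 3, 4, 5 or 6, knockout 2 or knockout 4, or with sex as a covariate (limma adjusted p = 0.233 and 0.222). The differences themselves stayed at 0.56 to 0.67 for Malat1 and 0.57 to 0.65 for Clk4 without any one of those 6 libraries, and at 0.52 and 0.56 with sex as a covariate.

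No other member passed. Ddx5 differed by 0.26 ± 0.06 (SE; limma adjusted p = 0.0679), Clk1 by 0.38 ± 0.10 (0.0781) and Luc7l2 by 0.30 ± 0.08 (0.0852). Neat1 differed by 0.60 ± 0.20 (limma adjusted p = 0.174), Srsf5 by 0.32 ± 0.14 and Srsf11 by 0.20 ± 0.08. Rsrp1 (0.21 ± 0.15) and Ddx17 (-0.07 ± 0.11) had intervals that held 0. In all, 9 of the 10 differences were above 0, with a median of 0.31, against 49.0% of all genes, whose median was 0.00. Leaving out the library labelled wild type 2 and that labelled knockout 1, the count was also 9 and the median 0.26. Without wild type 2 and knockout 4, the libraries at the ends of the range, 8 were above 0 and the median was 0.16. The members vary together and were chosen with values of these libraries known. These counts are therefore a description and not a set of independent results.

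The run difference was larger among the wild type libraries for some members and among the knockouts for others. For Malat1 it was 0.97 on the log2 scale in wild type (0.64 without wild type 2) and 0.26 in knockout. Clk4 gave 0.90 (0.67 without wild type 2) and 0.35, and Rsrp1 0.59 (0.23) and -0.16. Neat1 gave 0.31 (0.10) and 0.89. Without wild type 2 the first run has wild type 3 alone. The knockout value of Neat1 came from knockout 4 (484 per M), since knockout 5 (185) lay within the first-run knockouts (139 to 206). Put the other way, the genotype difference of Rsrp1 was 0.12 in the first run and -0.62 in the second, and that of Ddx17 was 0.17 and 0.68. The first run holds both libraries whose Rbck1 level went against the label, wild type 2 and knockout 1. Among its other libraries, Rsrp1 was at 160 per M in wild type 3 and at 115 and 132 in knockout 2 and 3. Ddx17 was at 183.97 in wild type 3 and at 182 and 253 in knockout 2 and 3. A part of the run and a part of these 2 libraries cannot be told apart here. A direct test of whether the genotype difference changed between runs passed for 2 genes (0.0154%), and no member was among them. Unadjusted p lay under 0.05 for 767 genes and for 4 members (Malat1, Rsrp1, Ddx17 and Clk4; limma adjusted p = 0.651, 0.684, 0.75 and 0.815). Malat1 passed when wild type 3 was left out (limma adjusted p = 0.0265), and over all alternatives its adjusted p ran from there to 1.0. That fit leaves 1 wild type library in the first run, wild type 2, which is then assumed to vary like the other groups.

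Most members varied together across the 10 libraries. After each genotype mean was subtracted, 39 of the 45 pairs had a Pearson's r above 0, with a median of 0.71. Over all 83792985 pairs of genes tested, 50.0% were above 0 and the median was 0.00. The 6 pairs below 0 all included Ddx17, and the 36 pairs without it, set apart after these values were seen, had a median of 0.74. The highest values were 0.98 for Clk1 with Luc7l2 and 0.95 for Malat1 with Clk4. Malat1 and Clk4, without any subtraction, had a Pearson's r of 0.95 and a Spearman's rho of 0.92, and r was 0.86 without the 2 libraries farthest from the median (wild type 2 and 3). Subtracting the means of the runs as well brought the median of the 36 pairs to 0.51 with 34 above 0. Without wild type 2 and knockout 4 it was 0.48 with 31 above 0. Each value is a description over libraries that share their preparation and depth with every other gene. The members were also chosen with values of these libraries known, so the share over all pairs is no test of their pairs.

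Single pairs, again with genotype means subtracted, differed in how close they were. Malat1, Clk1, Clk4 and Luc7l2 had r of 0.88 to 0.98 with each other. Neat1, Srsf5 and Srsf11 had r of 0.82 to 0.89 with each other, and Clk4 with Srsf11 was also at 0.89. Without wild type 2 and knockout 4, Malat1 with Clk4 was at 0.95 and Clk1 with Luc7l2 at 0.94, while Neat1 with Srsf5 was at 0.40. In that set Srsf5 was at 0.71 with Srsf11 but at -0.36 with Clk1 and -0.27 with Luc7l2. With run means subtracted too, Neat1 with Srsf11 (0.82), Neat1 with Srsf5 (0.75) and Srsf5 with Srsf11 (0.81) were still high, as were Malat1 with Clk4 (0.88) and with Rsrp1 (0.86), while Malat1 with Neat1 was 0.12. Before that step Malat1 and Neat1, which are neighbours on chromosome 19, had an r of 0.52. Ddx17 stood apart: its 9 pairs had a median r of -0.16 with genotype means subtracted, 6 of them below 0, and -0.37 with Rsrp1. The 2 paralogs Ddx5 and Ddx17 had an r of 0.07.

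**Figure D4:**
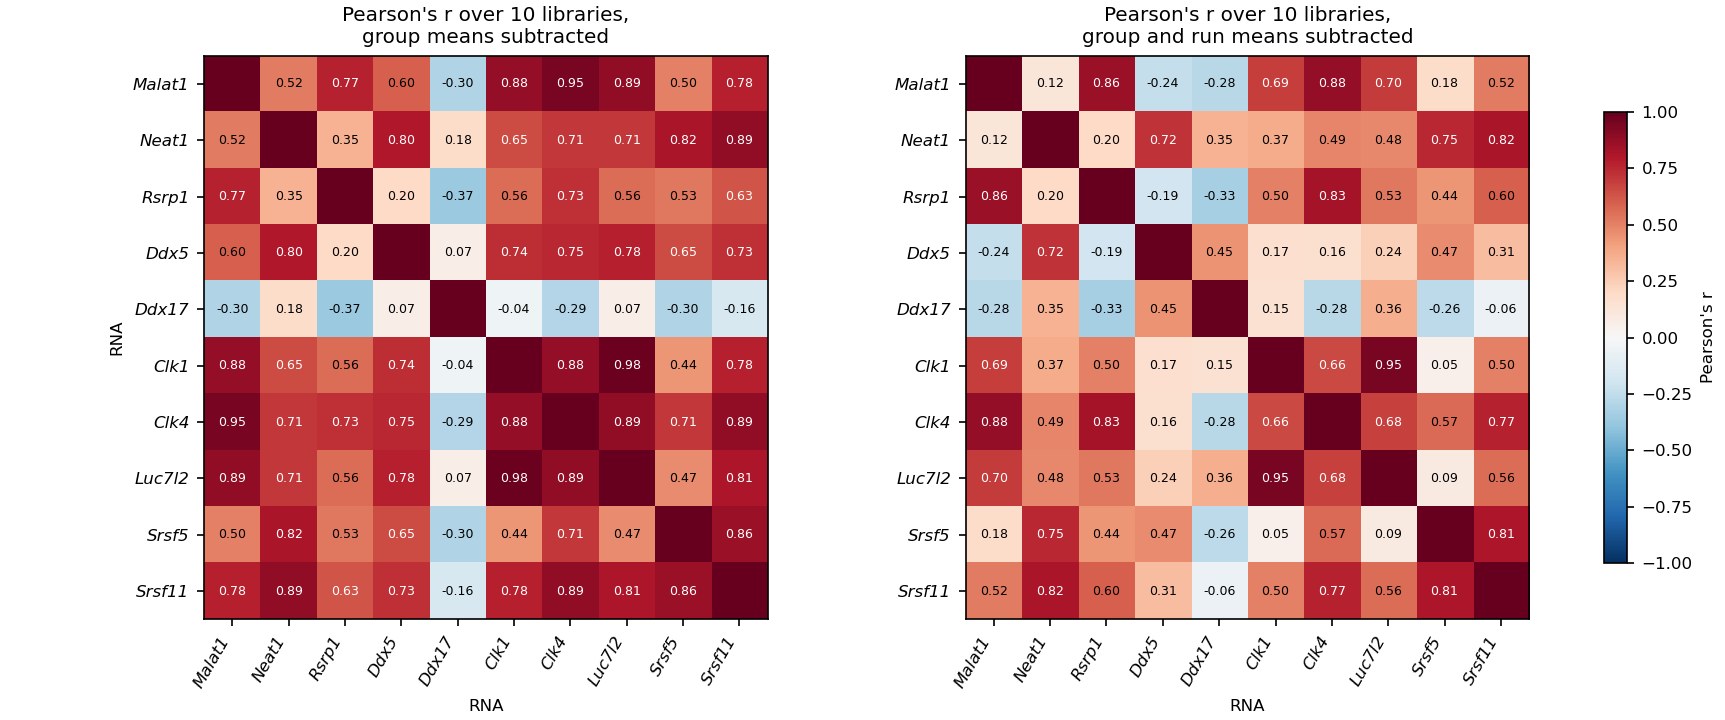
Pearson's r of log2 levels over 10 libraries for each pair of RNAs (rows and columns), after subtraction of genotype means (left) and of genotype and run means (right). The left map is red except for the Ddx17 row and column, and on the right r of Malat1 with Neat1 and with Ddx5 is close to or under 0.

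The genes most like each member were found among 11673 named genes by the same r, with genotype means subtracted, over 10 libraries. For Luc7l2 these were Son, which encodes a large speckle protein (r = 0.984), and the centriolar gene Ccp110 (0.979). Ccp110 also came first for Clk1 (0.976), before Actr1b (0.968). Srsf11 varied most like Snx11 (0.968) and Hnrnpdl (0.956), an hnRNP gene. Malat1 varied most like Ctbp2 (0.977) and Rnf145 (0.974), Clk4 like Tmem110 (0.963) and Mphosph6 (0.96), and Neat1 like Cdk8 (0.955) and Zc3h7a (0.943). For Rsrp1 the genes were Dennd2d (0.943) and Slc2a1 (0.935), the glucose transporter GLUT1, and for Srsf5 Fbxo9 (0.961) and Unk (0.925). The helicase Ddx5 was closest to Tle2 (0.967) and Ryr2 (0.948), and Ddx17 to Dagla (0.969) and Eif2ak3 (0.935), the kinase PERK. Each pair is the highest of 11673, so these values are a description and say nothing of shared control.

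Other genes of RNA processing were compared between the runs as lists. Among 23 SR-related and RS-rich factors 20 had a difference (second minus first run) above 0, with a median of 0.15 on the log2 scale. None passed with limma, 8 had an unadjusted p under 0.05, as 15.8% of all genes did (2041), and Rsrp1 is 1 of the 23. All 10 factors of nonsense-mediated decay were also above 0 (median 0.20), with none past the limma threshold and 5 at an unadjusted p under 0.05. Smg1, the kinase that starts this decay, differed by 0.35 ± 0.12 (SE, limma adjusted p = 0.169), and Upf1, its helicase, by 0.05 ± 0.06. Without wild type 2 and knockout 1 the counts were 20 of 23 and 8 of 10. The 11 SR protein kinases gave 9 above 0 (median 0.14), and Clk4 was the 1 that passed.

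By contrast, the 25 core spliceosome genes split into 11 above and 14 below 0, the 21 hnRNP genes into 11 and 10, and the 12 paraspeckle proteins into 6 and 6, with 0 past the threshold in each. Of these, 0, 5 and 2 genes had an unadjusted p under 0.05 with limma. When all columns were scaled to equal totals, which moved the median of all genes by 0.04, the core spliceosome split was 15 and 10 and the hnRNP split 17 and 4. Prpf8, the largest core factor, had 335 ± 30.7 per M in the first run and 331 ± 39.5 in the second (SD, n = 5 each). Nono, a paraspeckle protein that binds Neat1, had 120 ± 4.64 and 117 ± 6.78. Among the 10 SR proteins, 4 were above and 6 below 0 (6 and 4 at equal totals), with the members Srsf5 and Srsf11 on the higher side. Srsf2 had 99.4 ± 5.56 and 102 ± 7.39 per M, and Srsf3 had 102 ± 9.65 and 95.6 ± 15.2. Of the 8 LUC7-like and U1 proteins 5 were above 0, with Luc7l3 at 0.26 ± 0.09 (SE, limma adjusted p = 0.173) beside Luc7l2. In the DEAD-box family 12 of 19 were above 0, Ddx3x being at -0.17 ± 0.10.

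**Figure D5:**
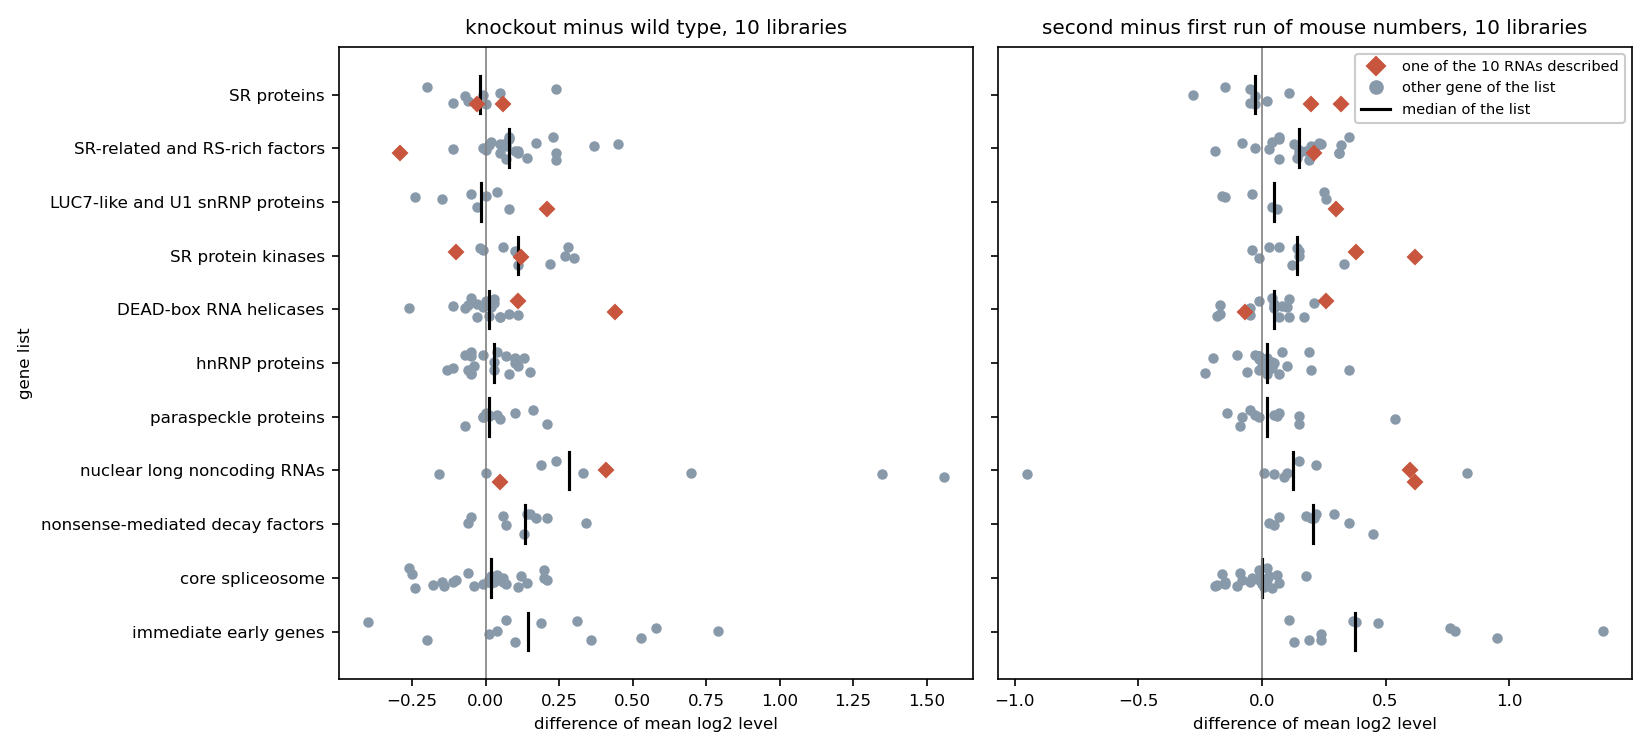
Difference of mean log2 level for each tested gene (points) of 11 lists (rows), for knockout minus wild type (left) and second minus first run (right), with the described RNAs as diamonds and each list's median as a line. Core spliceosome, hnRNP and paraspeckle medians lie within 0.03 of 0 on both sides, while the members lie to the right of their lists' medians in the run comparison except Ddx17.

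Between genotypes the same lists were mixed. SR-related factors lay above 0 in 19 of 23 cases (median 0.08) over 10 libraries, in 20 of 23 (median 0.10) over the 8, and in 13 of 23 without wild type 2 and knockout 4. Nktr, a cyclophilin with an RS-rich tail, differed by 0.45 ± 0.11 on the log2 scale (SE) in the 10 and also in the 8 libraries. Srrm2, a speckle scaffold, had 160 ± 21.6 per M in wild type against 208 ± 34.2 in knockout (SD, n = 5 each). Neither passed (limma adjusted p = 0.314 for each over 10, and 0.0973 and 0.128 over the 8), and Rsrp1 had the lowest value of this list. Srsf10 was at 48.3 ± 5.1 and 57.1 ± 0.487 per M and Srsf3 at 106 ± 10.2 and 92.4 ± 11.7, the ends of the SR protein list (limma adjusted p = 0.359 and 0.517 over 10, and 0.238 and 0.226 over the 8). Of 10 nuclear noncoding RNAs 8 lay above 0 (median 0.29) over 10 libraries and 7 (median 0.19) over the 8. Apart from the members, the imprinted Meg3 had 0.809 ± 0.447 per M in wild type against 3.49 ± 1.72 in knockout (SD, n = 5 each). Its log2 difference was 1.56 ± 0.32 over 10 libraries (SE, limma adjusted p = 0.285). Over the 8 it was 1.79 ± 0.32 (SE) and passed (limma adjusted p = 0.0183). The wild type mean of Meg3 lay under the 1 per M of the filter, so this pass is given only as a description. Tug1 had 66.1 ± 7.17 and 65.8 ± 2.73 over 10 libraries, and its difference over the 8 was -0.09 ± 0.08 (SE).

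Some other gene lists also differed between the runs. Of 12 immediate early genes, which respond within minutes to many stimuli, 12 were above 0 (second minus first run, median 0.38) and 3 passed, among them Fos (0.95 ± 0.19 (SE), limma adjusted p = 0.0305) and Fosb (1.38 ± 0.28, limma adjusted p = 0.0305). The sum over all 13 listed, tested or not, was 813 to 1194 per M in the first run and 1025 to 1306 in the second. All 6 ciliated cell markers were above 0 as well (median 0.52, 4 past the threshold), and their sums did not overlap, with 190 to 252 and 272 to 336 per M. Of 10 heat shock genes 9 were below 0 (median -0.14), and 3 of 10 without wild type 2 and knockout 4. Of 4 macrophage and monocyte markers tested 3 were below 0 (median -0.35). Mrc1, named after its value was seen, had 3.2 ± 0.942 per M in the first run and 0.47 ± 0.416 in the second (SD, n = 5 each). It met the filter of 1 per M in 5 libraries through the first run, where it is high. Its difference of -2.04 ± 0.32 (SE, limma adjusted p = 0.00562) is therefore only a description. AT1 markers were above 0 in 5 of 8 cases (median 0.16), with 4 at an unadjusted p under 0.05 and 0 past the limma threshold. The AT2 markers split into 5 above and 7 below 0. All 3 female libraries belong to the first run. The part of these measures in the levels of the members was not tested.

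The start regions of 8 members have an entry in the RefSeq promoter table (GRCm38.p6, the mm10 assembly), while Neat1 and Clk1 do not. They were read for letters that members moving together share, and the letters searched were chosen after the sequences had been seen. TGACGT or its reverse complement ACGTCA, the core of the cAMP response element, occurs in the 250 bases before the RefSeq start of 5 members (Clk4, Ddx17, Malat1, Rsrp1 and Srsf11). It occurs in 11.6% of 9754 tested genes with an entry and in 6.47% of all 32851 promoters. The RefSeq start can differ from the GENCODE gene start given above. By the GENCODE coordinates the Clk4 window lies inside the gene, outside its exons, and the Rsrp1 window overlaps an annotated exon. The full palindrome TGACGTCA, which contains that core on both strands, occurs in Clk4 alone (3.09% of tested genes). CCAAT or ATTGG occurs in 3 members against 40.3% of tested genes, and TATAAA or TTTATA in 2 against 7.62%. Windows with the core in capitals, 40 bases each along the gene's strand and outside annotated exons, are shown for 4 members.
Malat1, chr19:5802695-5802734, minus strand, motif 45 bases before the start: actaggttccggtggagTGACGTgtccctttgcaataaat
Clk4, chr11:51263032-51263071, plus strand, 65 bases before: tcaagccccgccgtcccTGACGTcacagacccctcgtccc
Ddx17, chr15:79546778-79546817, minus strand, 59 bases before: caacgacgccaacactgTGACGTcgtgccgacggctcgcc
Srsf11, chr3:158036666-158036705, minus strand, 82 bases before: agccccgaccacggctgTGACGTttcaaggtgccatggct
Ddx17, which did not vary with the others, has the core. Luc7l2, Ddx5 and Srsf5, which varied with most members when genotype means alone were subtracted, have none in this window. A match describes these letters and says nothing of binding, which was not measured.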

How the data were processed

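Messenger RNA of sorted AT2 cells was sequenced on an Illumina instrument from polyA libraries (NEBNext Ultra kit), per the labels' protocols. Tools named in the submitters' processing notes are bcl2fastq 2.17 and edgeR 3.14.0, with mm10 as the build and no roles. The sources used here give no aligner, annotation or strand setting. The authors deposited 1 table of normalized counts, a signal that is never negative and not whole, for 16154 Ensembl genes and 10 libraries, matched to samples by title. Symbols were found for 16026 IDs.

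The table was divided by the mean column total (7.1443 M). Genes at 1 per M or more in at least 5 of 10 libraries (12946) were tested with limma-trend (limma 3.58.1, R 4.3.3) on log2(value + 0.5), two-sided, at 0.05 after Benjamini-Hochberg adjustment over all of them. Differences are on that log2 scale, whose pseudocount makes those of low genes too small. Depth is unknown beyond the bound given by the smallest values, and no counting intervals were made. The script was tested on simulated data. Descriptions used Python 3.11.15 with pandas 2.3.3, and figures matplotlib 3.10.9.

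The members, gene lists and tests were chosen with earlier results of these data known. Named genes are the members, Rbck1, per RNA list the 2 other genes with the largest genotype difference and the 1 with the highest level per kb, and per member the 2 genes most like it. Not all of them are printed, and Fos, Fosb and Mrc1 were named after their values were seen. As alternatives, pseudocounts of 0.1 and 2, filters of 0 and 5 per M, equal totals, median-ratio factors, array weights, a replicate block, run or sex as covariates, 1 run alone and leaving out each library were run. Removal of the exon length trend, the alternatives for the 8 libraries and sets without wild type 2 and knockout 4 were partly added after seeing the data.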

Additional observations from a re-analysis of the deposited data

Results flagged for a closer look

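In groups of 5 libraries, the highest or lowest library was set against the gap and range that a Dixon test allows at its 95% critical value of 0.71. Of the 20 groups examined, each of 10 RNAs in wild type and in knockout, 3 passed, all of them in knockout 4. Chance gives about 1 in 20. Neat1 was at 484 per M there and at 139 to 206 in the other knockouts (gap over range 0.807). Srsf5 was at 127 against 66.9 to 82.7 (0.735), and Srsf11 at 58.8 against 45.1 to 46.9 (0.87). The 3 RNAs vary together across libraries, so these are not independent, and without wild type 2 and knockout 4 the genotype difference of Srsf5 was -0.15 on the log2 scale where it was 0.06 over all 10.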

How the results depend on the processing

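The number of replicates and the 2 libraries whose Rbck1 level went against the label limited these results. Depth limits low RNAs most, of which Clk4 (11.9 to 31.4 per M) was the lowest member. Rsrp1, called lower without wild type 2 and knockout 1 (-0.55 on the log2 scale) and in the second run alone (-0.62), was at 0.12 in the first run alone. The first run holds both wild type 2 and knockout 1. Between genotypes over 10 libraries, 0 genes and 0 members passed. With the replicate number as a block 259 genes passed (211 higher, 48 lower, no member). That fit kept only the numbers found in both groups, so wild type 6 and knockout 1 were left out of it as well. With run as a covariate 1 gene passed, and in the second run alone 41 (2 members). Without wild type 2 and knockout 1 there were 52 (1 member), and leaving out 1 library gave 0 to 4. The deviations of the 4 pairs of libraries that share a number correlated at 0.314, 0.027, 0.099 and 0.079, and 3 of 8 libraries correlated best with their own number. These values show little pairing by number but cannot exclude it. For the run comparison no paired analysis was possible because each shared number lies within 1 run. In the 8 libraries (52 genes, 1 member), no filter gave 10 genes and 0 members, sex as a covariate 27 and 0, array weights 2 members, and leaving out 1 library 19 to 100 genes and 0 to 2 members. Rsrp1 was no longer called without wild type 4 or 5 or knockout 2 or 5.

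Between runs (81 genes, 2 members), a filter of 5 per M gave 51 genes and 0 members, array weights 124 genes, no filter 0 members, removal of the exon length trend 1 member, and sex as a covariate 43 genes and 0 members. Without wild type 2 and knockout 1 there were 28 genes and 0 members, without wild type 2 and knockout 4 14 and 0, and leaving out 1 library 18 (wild type 2) to 139 (knockout 1) genes and 0 to 2 members. The difference of the genotype effect between runs (2 genes, 0 members) gave 37 genes with no filter, 5 with array weights, 5 with the length trend removed, 24 without wild type 2 and knockout 1, 1 without wild type 2 and knockout 4, and 1 to 18 (wild type 3) genes and 0 to 1 members leaving out 1 library. For counts lowered by fewer libraries, the smaller number of samples is part of the setting; for the rest the cause was not tested.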
